A study of Mus musculus with 6 samples.

Results

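The sequences described here are 64 double-stranded DNA oligos of the R5 library that keep G at position 14 of a Gli binding site. They were chosen by sequence alone, from the R4-R5 block of 1 binding reaction. Members read A, G, A at positions 10 to 12 and G at position 14, with every base at positions 13, 15 and 16. They are 64 of 256 R5 sequences and of 508 sequences in the block. The oligos were incubated with recombinant mouse Gli (Gli1 in the titles), the protein-bound band and the free band were cut from a gel, and the DNA of each was amplified by PCR and sequenced. The groups used here are R4-R6 bound, with 1 sample, and R4-R6 unbound, with 1 sample. A second deposited table of 16-base sequences, which names no reaction but whose windows fit the R1-R5 titles, held the same oligos and was used for comparison. The titles and block headings of the R4-R6 samples name Gli libraries, whereas their characteristics describe a CTCF library in an unmethylated and an M.SssI methylated form. The titles and headings were followed, and the headings give no methylation state for these sequences.

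Gli proteins are the zinc finger transcription factors that act at the end of Hedgehog signalling. Several fingers in a row each contact a few neighbouring bases, so a binding site is longer than its best conserved core. The known Gli core corresponds to the first 9 bases of the 16-base sequences, and positions 10 to 16 lie beside it. The assay counts how often each variant ran with protein or without it, and the ratio of bound to unbound reads ranks the variants by relative binding within a reaction. The oligos are designed, so they have no genomic coordinates.

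Position 1 is where the 16-base sequences start, and the 7 listed bases are positions 10 to 16. In the sequences below, capitals mark the bases that vary among members, and position 14 is in capitals only where it is not G. The 7-base sequences are the strongest and the weakest member for each base at position 13, then the strongest R5 sequence without G at position 14 and the weakest single-base variant of the strongest member. The last line places the strongest member in the 16-base table.
Strongest with C13: agaCgAA
Strongest with T13: agaTgAT
Strongest with A13: agaAgAA
Strongest with G13: agaGgAT
Weakest with C13: agaCgGG
Weakest with T13: agaTgGG
Weakest with A13: agaAgGG
Weakest with G13: agaGgGG
Strongest without G14: agaACAA
Variant of agaCgAA with A at position 14: agaCAAA
Strongest member in the 16-base table's frame: gaccacccaagaCgAA

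In all, 774169 bound and 805024 unbound reads were counted in the R4-R6 reaction, so a ratio of 1 lies close to an equal share of both fractions. The 64 members held 98926 bound and 75958 unbound reads, with 467 to 3292 bound and 256 to 4094 unbound reads per sequence. They made up 25% of the R5 sequences and 27.0% of their unbound reads (95% Clopper-Pearson interval 26.8 to 27.1%). Of the bound R5 reads they made up 60.6% (60.4 to 60.8%). Intervals and standard errors (SE) cover counting error only, and they treat each read as a separate molecule. Amplified reads that carry no molecular identifiers cannot be counted as separate molecules, so the intervals and SE may be too narrow. With 1 library per fraction there was no replicate and no test between conditions. Differences were called when they reached 1.5-fold and exceeded 2 counting SE.

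Members bound over an 8.20-fold range. The strongest, agaCgAA, had 2508 bound and 546 unbound reads, a ratio of 4.59. The weakest, agaGgGG, had 2292 bound and 4094 unbound reads, a ratio of 0.560. The natural log of the ratio had a mean of 0.41 ± 0.57 (SD, n = 64 sequences), and 48 members had more bound than unbound reads. All members carried the same G at position 14, so this whole range came with changes at positions 13, 15 and 16. The top of the order was close: agaCgTT, with a ratio of 4.53, and agaCgAT, with 4.30, lay within 2 counting SE of agaCgAA. They were followed by agaTgAT at 3.89, agaTgAA at 3.67 and agaTgTT at 3.49. The next places went to agaAgAA, at 3.37, and agaAgAT, at 3.26. The 8 leading members thus all ended in AA, AT or TT and had C, T or A at position 13.

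Replacing G at position 14 lowered binding in every matched pair. The 192 R5 sequences without G14 had a mean log ratio of -1.30 ± 0.45 (SD), and none of them had more bound than unbound reads. The strongest of these was agaACAA, with 351 bound and 393 unbound reads and a ratio of 0.893. Above it lay 50 of the 64 members. The other 14 overlapped the sequences without G14, and 13 of them had G at position 13. The remaining overlapping member was agaTgGG, with a ratio of 0.787. In the other direction, 8 sequences without G14 lay above the weakest member.

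Each member was then paired with the 3 sequences that differ from it only at position 14. The variant was lower in all 192 pairs, and 176 were called, which is 91.7% of pairs. For comparison, 35.4% of the swaps among A, C and T at this position, and 39.6% of all single-base swaps within R5, were called in either direction. The median fall was 7.99-fold for G14A, 5.41-fold for G14C and 5.33-fold for G14T. From agaCgAA, G14A gave agaCAAA, with 73 bound and 507 unbound reads and a ratio of 0.144, which is 31.7-fold lower. G14C gave a ratio of 0.247, 18.5-fold lower, and G14T gave 0.550, 8.34-fold lower. The G14A fall was the largest of the 192, and T was the least costly replacement in this sequence.

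How much G14 mattered depended on the base before it. The median fall over the 48 pairs at each base was 11.4-fold with C at position 13, 6.74-fold with A and 6.38-fold with T. With G at position 13 it was 1.84-fold. All 48 pairs were called for each of C13, A13 and T13, against 32 of 48 for G13. The smallest change was in agaGgTG, with a ratio of 0.613. Its variant agaGTTG had 0.557 and lay 1.10-fold lower, a log change of -0.10 ± 0.05. The difference in the gain from G14 between C13 and G13, averaged over the 16 matched endings, was 1.91 ± 0.03 (counting SE) on the natural log scale for G14A. Over the 9 such contrasts of A13, C13 or T13 with G13 it lay between 1.19 and 2.02, with the same sign in all 16 endings of each contrast. By median fall, A was the costliest replacement after each base at position 13, and T the least costly after C13, T13 and G13. Only after A13 was the order different. There C at position 14 cost a median 4.67-fold, T cost 5.79-fold and A cost 11.8-fold. After C13, C and A cost 14.3-fold and 15.1-fold, and T cost 7.13-fold.

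Position 13 carried most of the variation among members. The mean log ratio was -0.33 ± 0.25 (SD, n = 16) where this base was G, against 0.77 ± 0.44 for C, 0.69 ± 0.29 for A and 0.52 ± 0.46 for T. The ranges were 1.05 to 4.59 in ratio for C13, 0.787 to 3.89 for T13, 1.23 to 3.37 for A13 and 0.560 to 1.15 for G13. All G13 ratios thus lay below all A13 ratios, although the nearest of them, 1.15 for agaGgAT and 1.23 for agaAgGG, were within 2 counting SE of each other, while A13, C13 and T13 overlapped each other broadly.

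With positions 15 and 16 matched, G13 was lower than A, C or T in 48 of 48 pairs, and 47 were called, which is 97.9%, with 0% called higher. The median fall was 2.84-fold for A13G, 3.20-fold for C13G and 2.38-fold for T13G. The pair that missed the 1.5-fold limit was of T13G, with a log change of -0.34. Without G at position 14 the direction was the opposite. There G13 was called higher than another base in 66.7% of 144 pairs and lower in 0.694%, with a median rise of 1.68-fold. The low standing of G13 among members was therefore not shared by the rest of the R5 library. C13 exceeded T13 in 16 of 16 endings, by a median of 1.27-fold, although only 1 of these pairs was called. Between A13 and C13 the direction varied with the ending. C was higher in 11 of 16 endings and lower in 5, from -0.26 to 0.50, with 1 called, and the mean difference was 0.07 ± 0.02 (counting SE).

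Read numbers moved with this result. Members with G13 had a median of 3540 reads over both fractions, against 1753 for A13, 2701 for C13 and 3163 for T13, and they held 44.0% of the members' unbound reads and 24.3% of the bound reads. All 64 members had over 100 reads in each fraction. Whether read number had a part in the differences was not tested.

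The bases at positions 15 and 16 changed binding less, and with a common pattern. At position 15 the mean log ratio was 0.68 ± 0.63 (SD, n = 16) for A, 0.54 ± 0.57 for T, 0.36 ± 0.52 for C and 0.06 ± 0.40 for G. At position 16 it was 0.71 ± 0.58 for T, 0.54 ± 0.61 for A, 0.22 ± 0.47 for C and 0.18 ± 0.49 for G. Both positions thus had A and T above C and G, and the SDs are wide because they include the effect of position 13. Matching removes that effect. A15G was lower in 16 of 16 contexts, by a median of 1.71-fold, and T15G in 16 of 16, by 1.55-fold. T16G was lower in 16 of 16, by 1.73-fold, and T16C in 16 of 16, by 1.59-fold. In contrast, C16G had a median log change of -0.03, with 11 contexts lower and 5 higher and none called.

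Of 96 swaps among members at each position, 51 were called at position 13 (53.1%), 39 at position 15 (40.6%) and 31 at position 16 (32.3%). Among sequences without G14 the shares were 51.4%, 25.3% and 7.99% of 288 swaps. The counting SE was larger without G14, with a median of 0.07 per sequence against 0.04 for members, and the median swap at position 16 was also smaller there, 1.17-fold against 1.27-fold. The counts at positions 15 and 16 rest on small changes, since 10 and 12 swaps passed a stricter limit of 2-fold and 3 counting SE.

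Positions 15 and 16 were read together as the last dinucleotide. Averaged over position 13, endings AA, AT and TT had mean log ratios of 1.04, 1.03 and 0.97 (n = 4 sequences each), and TA had 0.59. The ending TA was lower than AA, AT and TT with each of the 4 bases at position 13, by 1.20-fold to 1.96-fold. Of these 12 pairs 6 were called, all 3 with C13 and all 3 with T13, and those with A13 and G13 stayed under 1.5-fold. All 12 exceeded 2 counting SE, a limit that 67 of 96 member swaps at position 15 and 72 of 96 at position 16 also passed. With T13, agaTgTA had a ratio of 1.98, against 3.67 for agaTgAA, 3.89 for agaTgAT and 3.49 for agaTgTT. With C13, agaCgTA had 2.78, against 4.53 for agaCgTT. Once A at position 15 was followed by C or G, the mean fell to 0.32 and 0.34. The lowest ending was GG, with a mean of -0.14. Among endings with G15, GT was the highest, at 0.36, against 0.09 for GA and -0.06 for GC. T also had the highest mean at position 16 over all members.

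The fall from A to G at position 15 also varied with position 13. Over 4 endings the log change ran from -1.30 to -0.47 with T13 and from -1.12 to -0.50 with C13. With A13 it ran from -0.81 to -0.38 and with G13 from -0.55 to -0.10, so these ranges overlapped. The counting SE leaves out this spread. The mean was -0.88 ± 0.03 (counting SE) with T13, -0.78 ± 0.03 with C13, -0.54 ± 0.04 with A13 and -0.28 ± 0.02 with G13. Likewise, G13 members spanned only 2.05-fold in all, against 2.74-fold for A13, 4.39-fold for C13 and 4.94-fold for T13. The members with G13 were thus the narrowest group.

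An additive model gave the share of variation that the 3 positions held separately. It was fitted by least squares with the bases at positions 13, 15 and 16 as terms, and it accounted for 91.2% of the variance over the 64 members. Position 13 held 59.5%, position 15 held 16.6% and position 16 held 15.1%. The residual SD of 0.18 was 3.97 times the counting SE. Adding terms for the pair 15 and 16 raised the share to 95.4%, and terms for 13 and 15 raised it to 94.3%. Terms for 13 and 16 raised it to 91.8%, and all 3 pairs together gave 99.0%. Added terms can only raise this share. Residual degrees of freedom were 54 for the additive model, 45 with 1 pair and 27 with all 3 pairs. With terms for 13 and 16 the residual SD was no smaller, at 0.19. With all 3 pairs it was 0.09, still 1.86 times the counting SE. The 3 members furthest above the additive prediction were agaTgAA, by 0.38, agaCgAA, by 0.36, and agaGgGG, by 0.33. The 3 furthest below it were agaTgGA, at -0.30, agaGgCT, at -0.28, and agaGgCA, at -0.26. Both ends of the order, agaCgAA and agaGgGG, therefore bound more than their separate bases gave.

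From the strongest member, 6 of its 9 single-base variants at positions 13, 15 and 16 were called lower. Of all other R5 sequences, 97.3% were called lower than this member, which is the highest by choice, so the direction carries no information. C13G lowered the ratio 4.08-fold, A15G 3.07-fold, A16C 2.54-fold and A16G 2.44-fold. A15C lowered it 1.96-fold and A15T 1.65-fold. The variants that were not called were C13A, at 1.36-fold, C13T, at 1.25-fold, and A16T, with a log change of -0.07 ± 0.08. In this sequence the G at position 14 therefore cost more to replace than the bases at positions 13, 15 and 16, the smallest of its 3 falls being 8.34-fold.

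CpG dinucleotides occur in 2 places among the members. The 16 members with C13 form one with G14. As a group they had the highest mean of the 4 bases at position 13, although A13 had the higher median log ratio (0.71 against 0.68). The 4 members ending in CG hold a CpG at positions 15 and 16. These were agaCgCG, with a ratio of 2.06, agaAgCG, with 1.72, agaTgCG, with 1.62, and agaGgCG, with 0.584. None of the 12 comparisons with the same sequence ending in CA, CC or CT was called, and the log changes ran from -0.23 to 0.14. Since the headings state no methylation, an effect of the CpG step and one of any methylation cannot be told apart here.

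Members whose last bases are GAA also belong to the R4 library, which varies positions 10 to 13. These 4 shared sequences had ratios of 4.59 for agaCgAA, 3.67 for agaTgAA, 3.37 for agaAgAA and 1.13 for agaGgAA. Their counterparts with C at position 10 had ratios of 7.10, 7.28, 5.70 and 1.90. The substitution A10C raised the ratio 1.54-fold with C13, 1.98-fold with T13, 1.69-fold with A13 and 1.69-fold with G13. The place of G13 at the bottom was thus kept with either base at position 10, while C13 and T13 were within counting error of each other with C10.

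The cost of G13 was also present where positions 10 to 12 varied and GAA followed. Over the 64 R4 contexts the median T13G was -0.91 and 61 were lower, and over the 16 contexts of the R6 library, which varies positions 11 to 13, it was -1.02 and all were lower. Among the members it was -0.87. G13 was called lower than another base in 76.6% of R4 pairs and 77.1% of R6 pairs. The R6 sequences are listed as 3 bases and were placed by their match to R4 sequences with C at position 10 (r = 0.996 across 64 sequences, which are not replicates). Those 64 sequences came from separate oligo pools in the same reaction and the same pair of samples. Their log ratios differed with an SD of 0.08, close to the median counting SE of 0.07. The SD leaves out a common shift, and the median difference, R6 minus R4, was -0.06. The SD is not a spread between replicate reactions. As placed, the R6 contexts are among the R4 contexts, and the placement itself used their likeness. The low G13 in R6 is therefore not a finding apart from that in R4.

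Binding fell with the number of G and C among the 3 varied bases. The 8 members with none had a mean log ratio of 1.10 ± 0.24 (SD), the 24 with 1 had 0.59 ± 0.45, the 24 with 2 had 0.17 ± 0.49, and the 8 with 3 had -0.09 ± 0.54. The slope was -0.40 per G or C. With the bases counted apart it was -0.64 per G and -0.16 per C, so G and C did not move alike.

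The 16-base table gave the members another order. There they held 248302 bound and 5772 unbound reads, with a median of 88.5 unbound reads per sequence, and their ratios spanned 3.51-fold. The SD of their log ratios was 0.29 and the counting SE 0.12. Across the 64 members the log ratios of the 2 tables had r = -0.44 and rho = -0.44, and r lay between -0.50 and -0.40 within each base at position 13 (n = 16 each). Over the 192 R5 sequences without G14 r was -0.02. These points share their libraries, depth and base composition, and the values are descriptions. The strongest member of the R4-R6 reaction, agaCgAA, had a ratio of 46.3 in the 16-base table and ranked 22 of 64. The weakest, agaGgGG, had 67.2 and ranked 3. In this table the slope per G or C was 0.27, against -0.40 in the R4-R6 reaction, with 0.26 per G and 0.28 per C. The called share of swaps was 24.0% at position 13, 20.8% at position 15 and 13.5% at position 16. The order of members therefore holds for the R4-R6 reaction and was not repeated in the 16-base table.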

How the data were processed

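Each sequence has a raw read count for the bound and for the unbound fraction, per the file headers, with no depth scaling. The authors also deposited the ratio of both counts. The last column, which has no heading, was checked to be the negative natural log of the deposited ratio (largest difference 0.00378). How reads were counted and filtered is not given in the sources used here. Samples were matched to columns by titles and headings. The table of R6 methylation states was not used here.

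The log ratio was the natural log of bound over unbound counts after adding 0.5 to each, with a minimum of 10 reads per fraction. The counting SE was the square root of the summed reciprocals of these counts. Single-base differences were matched on all other bases and called at 1.5-fold or more and over 2 counting SE. On simulated counts with separate base effects and counting error only, the additive fit recovered the planted effects. The call rule was tried there on A13G and A13C only. Pair terms were not simulated, and the members departed from these settings, with a residual SD 3.97 times the counting SE. Sequences named are the strongest and weakest overall and for each base at position 13, the single-base variants of the strongest, the members shared with R4, the 3 largest residuals in each direction and the members ending in CG. Others were named after their values were seen: the leading members, the endings built from A and T, and the pairs at the extremes of position 14. Members, rule and lists were chosen with earlier results of these data known. Alternatives covered the pseudocount, the minimum, the call rule, weighting, the reference and the members shared with R4. Python 3.11.15, numpy 2.4.6 and scipy 1.17.1 were used.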

Additional observations from a re-analysis of the deposited data

Results flagged for a closer look

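A group of base changes among the members moved every matched context one way in the R4-R6 reaction and had a mean of the opposite sign, by more than 2 counting SE, in the 16-base table. With 1 library per fraction behind each table, the difference was not tested, other than against counting error. All values are means over 16 contexts on the natural log scale, with counting SE, and the value in the R4-R6 reaction comes first. At position 13, A13G had -1.02 ± 0.02 and 0.35 ± 0.04, and G13T had 0.85 ± 0.01 and -0.33 ± 0.04. At position 15, A15G had -0.62 ± 0.02 and 0.23 ± 0.04, and G15T had 0.47 ± 0.01 and -0.24 ± 0.04. At position 16, A16G had -0.35 ± 0.01 and 0.25 ± 0.04, C16T had 0.49 ± 0.02 and -0.19 ± 0.05, and G16T had 0.53 ± 0.02 and -0.16 ± 0.04. These changes gain or lose a G or C. Among the others that do so, C13T had -0.25 ± 0.02 and -0.31 ± 0.04, and A13C had 0.07 ± 0.02 and 0.33 ± 0.05, with the sign kept. A15C had -0.32 ± 0.02 and 0.27 ± 0.05, C15T had 0.17 ± 0.02 and -0.28 ± 0.04, and A16C had -0.32 ± 0.02 and 0.27 ± 0.05. Their means had opposite signs, but not every context moved one way in the R4-R6 reaction. Whether base composition had a part was not tested. C13G, which keeps the number of G and C, had -1.10 ± 0.01 and 0.02 ± 0.04, the latter within counting error of 0.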

How the results depend on the processing

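No paired analysis was possible because each fraction is 1 library. Over 39 alternatives for 11 results, 33 stayed within the limits set for a change and none reversed. Some of these could not change. All 64 members had over 100 reads in each fraction. The settings of the minimum were therefore no check of results on members alone in the R4-R6 reaction. With more than 2 counting SE as the whole call rule, called swaps among members were 82 of 96 at position 13, 67 at position 15 and 72 at position 16. With a limit of 2-fold and 3 counting SE they were 10 at position 15 and 12 at position 16. The correlation between the 2 tables moved to -0.67 under a minimum of 100 reads, which left 23 members. The cause was not tested. An SE widened by the spread between oligo pools of the same reaction, chosen after seeing the data, left the counts of calls at positions 13 to 16 as they were, which says nothing of variation between replicate reactions. In the 16-base table, few unbound reads limit the precision of single members.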
